A study of Xenopus laevis with 9 samples.

Results

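The cytosolic ribosomal proteins were followed in the tails of Xenopus laevis tadpoles given thyroid hormone. A probe set was counted as a member when the platform annotation gave it 1 gene and that symbol, without its homeolog suffix, began with rpl or rps and a number, began with rplp, or was rpsa. Genes with rps6k symbols, named for ribosomal protein S6 kinases, were left out with their 8 probe sets. The rule found 94 of the 15491 probe sets that are not array controls. They stand for 65 of the 6487 genes that the annotation names by such a probe set. By symbol alone, 43 were assigned to the large subunit (55 probe sets) and 22 to the small subunit (39 probe sets). The rule also takes in paralogs such as rpl7l1, rpl22l1 and rpl3l. Xenopus laevis carries a pair of subgenomes, so many genes exist as a .L and a .S homeolog: 43 probe sets were assigned to .L, 50 to .S, and rps9 carried no suffix. Another 14 probe sets listed several genes, all ribosomal (3 for the large and 11 for the small subunit), and are given below only as a group without names.

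Ribosomal proteins fold onto ribosomal RNA to form the small subunit, which decodes messenger RNA, and the large subunit, which joins amino acids. In vertebrates their messenger RNAs begin with a terminal oligopyrimidine (TOP) tract, through which the TOR kinase pathway adjusts how strongly they are translated, so that transcript level and protein output can part. The tadpole tail is the larval organ that thyroid hormone removes at metamorphosis.

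Whole tadpoles labelled stage 54 (the source names give stages 51 to 54) were held as 2 larvae per 500 ml container at 20 degrees C in FETAX medium. The 3 groups were vehicle for 48 h, triiodothyronine (T3, the active thyroid hormone) at 20 nM for 6 h, and T3 at the same dose for 48 h. Every array was hybridised with RNA pooled from 3 tails, and there were 3 arrays per group. The vehicle tails were taken at 48 h, so the 6 h comparison also differs in time, and the comparison of 48 h with 6 h of T3 also differs in time in the container. Whether the pools came from separate clutches is not stated in the labels, so a p-value here reflects only how much these pools varied, and the 3 arrays per group limit the precision.

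Values are the authors' GCRMA intensities (background-corrected, summarised probe set signals), shown as log2 over the median of each array, so that 0 is the array's median probe set. A probe set was tested when at least 3 of the 9 arrays lay at or above 0, which 8123 did. Across these, arrays of the same group correlated at 0.966 to 0.988, a description across probe sets. In the tail marker lists, all 9 muscle and all 5 epidermal probe sets lay above the median on at least 1 array, and 4 of 5 for notochord and cartilage did; the tbxt.S probe set, for the notochord factor brachyury, stayed below it. "Called" below means an adjusted p (Benjamini-Hochberg over all 8123) under 0.05 in limma's moderated test.

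Ribosomal protein transcripts were among the brightest on the arrays. Of the 94 probe sets, 82 ranked in the top 5% by mean level, 64 had a mean log2 level of 8 or more, and 17 lay from 6 to 8. Another 7 were never above the array median and were not tested: those for rpl28.L and rps20.L and 1 each for rpl3.L, rpl34.L, rpl38.L, rps10.L and rps28p9.S. The other 87, of which 51 are for the large and 36 for the small subunit, make up the tested members. Their median SD within a group was 0.07 on the log2 scale, against 0.17 over all tested probe sets. GCRMA values carry no mark for saturated spots, so whether the brightest probe sets were near the scanner's limit cannot be read from them.

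**Figure D1:**
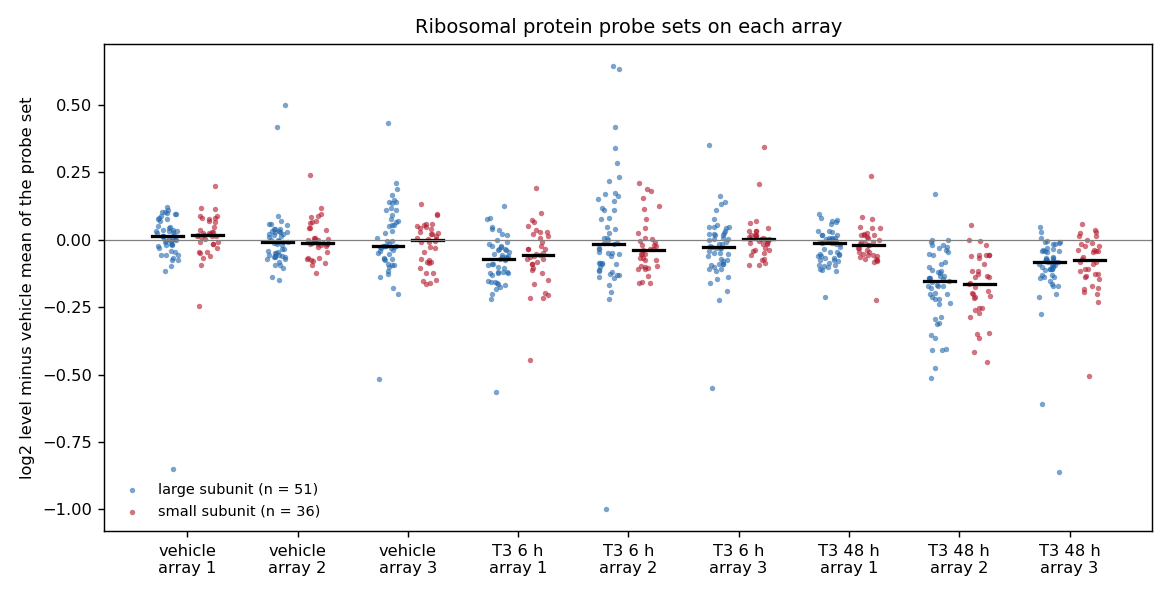
Log2 level of each tested ribosomal protein probe set minus its vehicle mean (vertical axis) on each of the 9 arrays, with large subunit points in blue, small subunit points in red and black bars at the medians. The medians lie close to 0 on most arrays, and T3 48 h array 2 is the lowest of the 9 arrays for 53 of the 87 probe sets.

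After 48 h of T3 no ribosomal protein probe set was called against vehicle: 0 of 87, where 11% of all tested probe sets were called. The median change was -0.09 on the log2 scale, with -0.09 for the large and -0.08 for the small subunit, and -0.05 over all tested probe sets. Of the 87, 82 were below 0 and 5 above, against 55.6% of all tested probe sets below 0, and changes ran from -0.30 to 0.04. This tally moved with single arrays and with the scaling. It was 74 of 87 without T3 48 h array 2 and 78 to 83 without any other array. With quantile normalization 60 of 87 were below 0 and the median was -0.025, against -0.026 over all tested probe sets. With another centring 78 of 87 were below 0 and the median was -0.065, against -0.020. In 82 of the 87 the change was within 0.2 of 0, as it was in 45% of all tested probe sets. The 95% confidence interval lay wholly within 0.5 of 0 for 81. A bulk measure cannot tell fewer cells of a type from less RNA per cell. At an unadjusted p under 0.05 there were 5 members, all lower, against 30.2% of all tested probe sets. For 14 members every T3 48 h array was below every vehicle array, against 19.7% of all tested, and for 0 every T3 48 h array was higher, against 12.9%.

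Among the large subunit proteins, rpl12.S, part of the stalk base, had the smallest p at 48 h. Its log2 levels were 8.48, 8.42 and 8.53 with vehicle and 8.38, 8.24 and 8.35 after 48 h of T3. The groups did not overlap, but the difference of -0.16 ± 0.06 (SE, n = 3 per group) had an adjusted p of 0.121 in limma. The probe set for rpl14.S, a large subunit protein, read 8.38, 8.30 and 8.17 with vehicle and 8.17, 7.87 and 8.12 at 48 h (difference -0.23, adjusted p 0.152). Here T3 48 h array 2 was the low one and array 1 lay within the vehicle values. The most negative value of all belonged to rpl7l1.L, a paralog of rpl7 that in human cells takes part in assembling the large subunit. It read 5.35, 5.38 and 5.33 with vehicle, and 5.14, 4.84 and 5.18 at 48 h, a difference of -0.30 ± 0.12 (adjusted p 0.138).

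Large subunit proteins with roles in late assembly or outside the ribosome had small differences. For rpl10.S, which joins the large subunit late in yeast, the difference at 48 h was 0.02 ± 0.05. For rpl11.S, which with rpl5 and 5S RNA can bind the p53 regulator Mdm2 in mammals, it was -0.04 ± 0.07. Both rpl5 homeologs were slightly below vehicle, at -0.08 for rpl5.L and -0.17 for rpl5.S, neither called (adjusted p 0.409 and 0.310). The muscle-type paralog rpl3l.L, known in mammals from striated muscle, varied widely between arrays: 2.90, 3.38 and 2.37 with vehicle, 3.01, 1.88 and 2.33 at 6 h, and 2.95, 2.86 and 2.02 at 48 h. Its groups overlapped throughout.

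The stalk proteins recruit the translation factors to the large subunit. The level of rplp0.S was 8.85, 8.72 and 8.74 with vehicle, 8.67, 8.71 and 8.68 at 6 h, and 8.75, 8.77 and 8.81 at 48 h. Its 48 h arrays lay within the vehicle range, and all 3 lay above the 6 h arrays by a mean of 0.09 ± 0.05 (adjusted p 0.251). Its partner rplp1.L differed from vehicle by -0.11 ± 0.08 at 6 h and by -0.00 ± 0.08 at 48 h. For rplp2.L the differences were -0.18 and -0.18 (adjusted p 0.351 and 0.185), for rplp2.S they were -0.03 and -0.10, and no stalk probe set was called at either time.

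**Figure D2:**
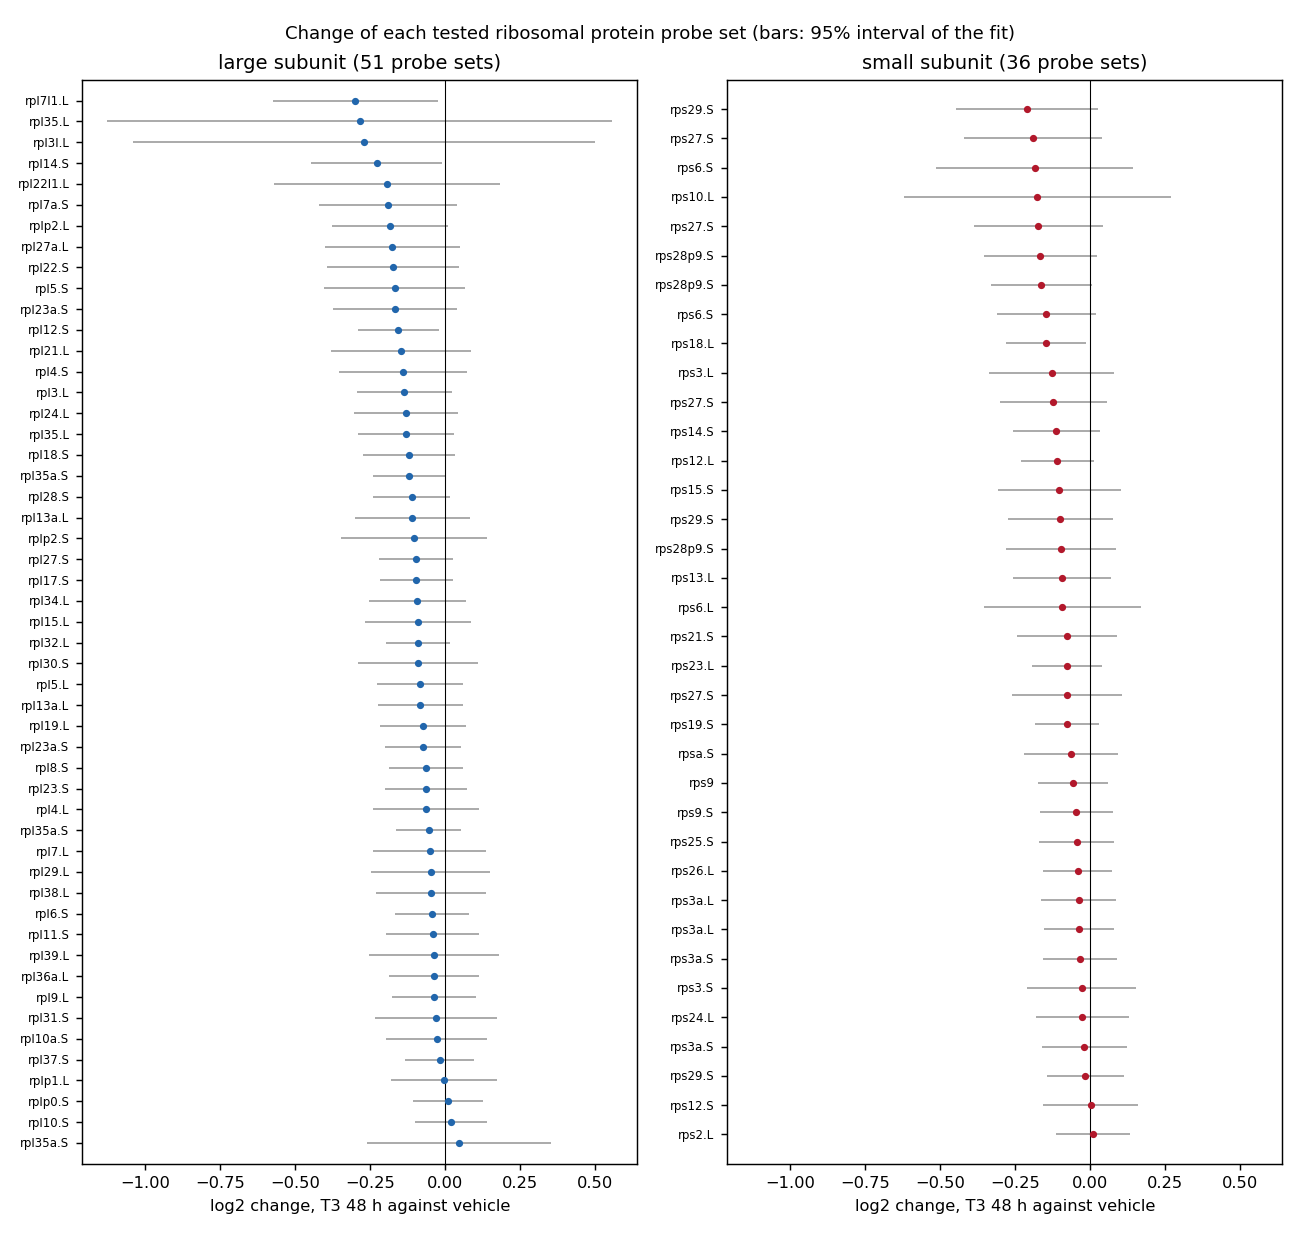
Log2 change of ribosomal protein probe sets after 48 h of T3 against vehicle, with horizontal bars for the 95% interval and a panel for each subunit. The changes run from -0.30 to 0.04 and 82 of 87 lie below 0, with none called. With quantile normalization 60 of 87 lie below 0, with another centring 78, and without T3 48 h array 2 74.

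The small subunit had 1 member at an unadjusted p under 0.05 at 48 h. The probe set of that member, rps18.L, which lies in the head of the subunit, read 8.48, 8.46 and 8.49 with vehicle and 8.39, 8.26 and 8.34 at 48 h. These groups did not overlap, and the difference of -0.15 was not called (adjusted p 0.136). The phosphoprotein rps6, a target of the TOR pathway through the S6 kinases, differed from vehicle at 48 h by -0.09 ± 0.12 for rps6.L and by -0.15 ± 0.07 for the bright rps6.S probe set. For rps3, at the messenger RNA entry channel, the values were -0.13 ± 0.09 (.L) and -0.03 ± 0.08 (.S). The laminin-binding protein rpsa.S differed by -0.06 ± 0.07, and rps2.L by 0.01 ± 0.05.

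After 6 h of T3 the ribosomal proteins were again without a call: 0 of 87, where 0.222% of all tested probe sets were called, and 0 at an unadjusted p under 0.05, against 15.6%. The smallest adjusted p was 0.323. The median change was -0.03 for all members and for each subunit, against 0.03 over all tested. There were 28 members above and 59 below 0, where 45.7% of all tested probe sets were below 0. For 11 members every 6 h array lay below every vehicle array, against 10.5% of all tested, and 1 (rpl30.S) lay above, against 14.1%. The highest value was that of rpl22l1.L, the paralog of rpl22, at 0.24 ± 0.17. Its arrays read 7.12, 7.07 and 7.06 with vehicle and 7.06, 7.72 and 7.19 at 6 h, so array 2 stood above the rest.

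Between 6 h and 48 h of T3 no member was called either, where 19.4% of all tested probe sets were. The median was -0.05 (-0.05 large, -0.06 small), against -0.06 over all tested, and values ran from -0.43 to 0.20. Below 0 were 68 of 87, against 57.1% of all tested probe sets. The 68 became 42 with quantile normalization and 44 with another centring, where the median was 0.0095 and -0.00052. At an unadjusted p under 0.05 there were 3 members, against 34.4% of all tested. They were rpl22l1.L and a pair of rps29.S probe sets. For rps29.S, a zinc-binding protein of the small subunit head, one probe set read 9.38, 9.51 and 9.26 at 6 h and 9.32, 8.85 and 9.10 at 48 h, a difference of -0.29 ± 0.11 (adjusted p 0.0796). The array 1 value at 48 h lay within the 6 h range and array 2 was lowest. For rpl22l1.L the 48 h arrays read 7.12, 6.61 and 6.94, a difference of -0.43 ± 0.17 from 6 h (adjusted p 0.0990). Not overlapping and lower were 5 members, against 23% of all tested, and 3 were higher (rplp0.S, rps2.L and rps25.S), against 13.8%.

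**Figure D3:**
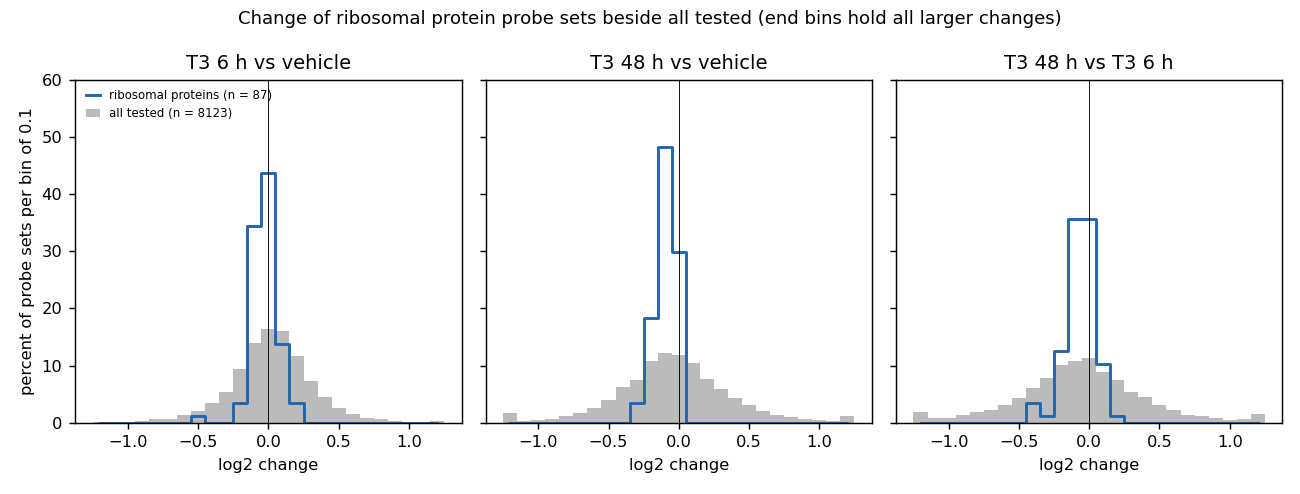
Distribution of log2 changes of the tested ribosomal protein probe sets beside all tested probe sets (percent of probe sets per bin), with a panel for each of the 3 comparisons. The ribosomal proteins form a narrow peak, with 95.4%, 94.3% and 92% of them within 0.2 of 0.

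The precision behind these values is given first for the 81 tested members of mean log2 level 6 or more. For them the 95% intervals reached from -0.37 to 0.62 at 6 h, from -0.57 to 0.18 at 48 h, and from -0.81 to 0.28 between both times. At the outer ends stood rplp2.L and rpl22l1.L at 6 h, rpl22l1.L at 48 h, and rpl22l1.L and rplp1.L in the last comparison. Some dimmer tested members had wider intervals, such as -1.24 to 0.29 for rpl3l.L at 6 h. For the dim rpl35.L probe set they were -1.12 to 0.56 at 48 h and -1.27 to 0.41 between both times. The narrow spread was shared by other bright probe sets. Of the 69 non-member probe sets with a mean log2 level of 8 or more, 91.3% lay within 0.2 of 0 at 48 h, against 96.9% of the 64 members at that level. In that set 1.45% were called at 48 h against vehicle and 2.9% at 48 h against 6 h. Below 0 at 48 h against vehicle were 60.9% of the 69 and 93.8% of the 64, with medians of -0.03 and -0.08. Of those 69, 42 have 1 gene, 8 list several genes and 19 list none, so ribosomal probe sets without a name may be among them. The 14 probe sets shared between ribosomal genes had a median of -0.04, -0.07 and -0.03 in the 3 comparisons, and none was called.

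The ribosomal proteins also varied between arrays of 1 group. The median deviation of the members from the vehicle mean was 0.02, -0.01 and -0.01 on the vehicle arrays, -0.06, -0.03 and -0.01 on the 6 h arrays, and -0.01, -0.16 and -0.08 on the 48 h arrays. Over all tested probe sets the 48 h arrays were at -0.04, -0.03 and -0.06, so T3 48 h array 2 stood lower for ribosomal proteins than for probe sets in general. That array was the lowest of 9 for 60.9% of members and for 21% of all tested probe sets. Large and small subunit medians differed by -0.03 to 0.02 on any 1 array. Without T3 48 h array 2 the median at 48 h against vehicle was -0.048, against -0.057 over all tested probe sets. Without T3 48 h array 1 it was -0.123, against -0.051. For 48 h against 6 h the median was -0.022 without array 2, against -0.071 over all tested, and -0.085 without array 1, against -0.065. Leaving out array 1 also gave the only calls among the single-array omissions: 3 at 48 h against vehicle (rps29.S, rps27.S and rpl7a.S) and 5 against 6 h (rps10.L, rps29.S, rpl30.S, rpl7a.S and rpl34.L), all lower. These are 3.45% and 5.75% of members, against 23.4% and 25.5% of all tested probe sets in the same fits. For rps29.S the call was at 1 of 3 probe sets in each comparison, and for rps27.S at 1 of 4. The rps10.L probe set lay near the array median, at a mean log2 level of 0.11. As a share of the summed linear signal the members took 18.7 ± 0.15% with vehicle, 18.1 ± 0.50% at 6 h and 18.2 ± 0.78% at 48 h (SD, n = 3 arrays).

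**Figure D4:**
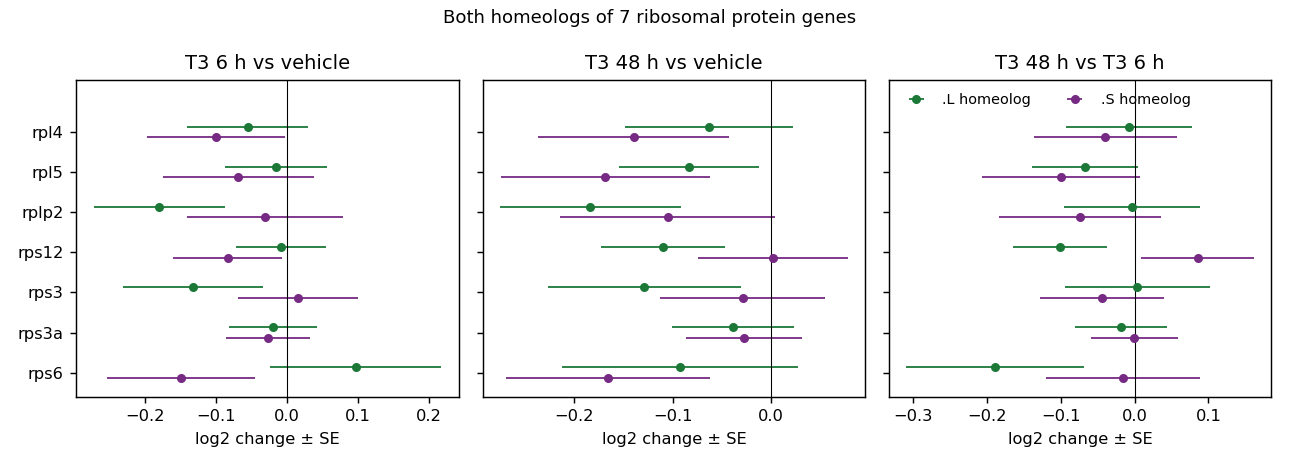
Log2 change with its SE for the .L and .S homeologs of the 7 ribosomal protein genes that have both tested, in the 3 comparisons. The SE bars of a pair overlap except at rps6 at 6 h and at rps12 between 6 h and 48 h of T3, and no difference between homeologs was called.

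Both homeologs were tested for 7 genes: rpl4, rpl5, rplp2, rps12, rps3, rps3a and rps6. None of the 7 pairs was called for a difference of change between .L and .S in any comparison, where 0%, 2.27% and 7.69% of 572 tested homeolog pairs were (6 h against vehicle, 48 h against vehicle, 48 h against 6 h). None had an unadjusted p under 0.05, against 12.9%, 19.6% and 25.7%. At 48 h the largest difference was at rps12, a small subunit protein of the beak, with -0.11 ± 0.06 for .L and 0.00 ± 0.08 for .S. The difference was -0.11 ± 0.12, with a 95% interval from -0.38 to 0.16. At 6 h the widest difference was 0.25 at rps6, with an interval from -0.08 to 0.57, where the .S value averages a bright probe set and one near the array median. The median absolute difference over the 7 pairs was 0.07, 0.08 and 0.05, against 0.16, 0.17 and 0.20 over all 572 pairs. The tested members also vary less within a group (median SD 0.07, against 0.17 over all tested probe sets). Pairs of the same brightness were not compared. Whether a probe set named for 1 homeolog also binds the transcript of the other was not tested. Small differences therefore need not mean that both homeologs changed alike. Levels of .L and .S probe sets are not set against each other, since probe sets differ in how they hybridise.

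Genes that make ribosomes, as opposed to being part of them, gave other values, on probe sets that were mostly dimmer. In a list of ribosome biogenesis factors, 87 probe sets of 65 genes were tested. At 6 h, where 0.222% of all tested probe sets were called, 1 rose: mrto4.L, which helps assemble the stalk, by 0.73 ± 0.12 (adjusted p 0.0432). The list had 0 calls at 6 h without any 1 array, except 3 without T3 48 h array 1. At 48 h, where 11% of all tested probe sets were called, 26 of the 87 fell and none rose, with a median of -0.46. They include dkc1.L, the pseudouridine synthase of ribosomal RNA (-0.91 ± 0.18, adjusted p 0.0151), bysl.S, a small subunit assembly factor (-0.91), brix1.S, of the large subunit pathway (-0.78), and 1 of 4 probe sets for the helicase ddx18.L (-0.65). From 6 h to 48 h, where 19.4% of all tested probe sets were called, 56 of the 87 fell, with a median of -0.71. Among them were rrp9.S, a small nucleolar RNP protein (-1.40), and gnl3.L, nucleostemin (-1.17). The count at 48 h moved with single arrays: it was 3, 2 or 4 without vehicle array 1, 2 or 3, 16 without T3 6 h array 1 or array 3, and 51, 1 or 3 without T3 48 h array 1, 2 or 3. The share of all tested probe sets called at 48 h moved as well. It was 3.1%, 3.79% or 4.64% without vehicle array 1, 2 or 3, and 8.48% or 7.76% without T3 6 h array 1 or 3. Without T3 48 h array 1, 2 or 3 it was 23.4%, 3.08% or 3.12%. The 56 became 33 without T3 6 h array 3, where 10.8% of all tested were called. With the replicate number as a block the 26 became 27 and the 56 became 52. In that fit 8.62% and 16.8% of all tested probe sets were called. A filter at log2 4 left 19 probe sets of the list. Of these, 3 were called at 48 h and 9 from 6 h to 48 h, with medians of -0.46 and -0.32. In that fit 8.21% and 16.8% of all tested probe sets were called. The bright ddx21.L and gtpbp4.L (7.26 and 6.84 with vehicle) differed by -0.22 and -0.29 at 48 h. From 6 h to 48 h they differed by 0.03 and -0.002, and neither was called.

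RNA polymerase I and III, which transcribe ribosomal RNA and small RNAs, had 16 probe sets tested. At 48 h, where 11% of all tested probe sets were called, 4 fell: polr1e.L (-0.66), polr3d.L (-0.93), polr1f.L (-0.72) and polr1c.L (-0.63). The 4 became 0, 2 or 0 without vehicle array 1, 2 or 3, and 6, 0 or 1 without T3 48 h array 1, 2 or 3. Between 6 h and 48 h 8 of the 16 fell, where 19.4% of all tested probe sets were called. With any 1 array left out, 7 to 9 of the list were called, against 10.6% to 25.5% of all tested probe sets.

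The mitochondrial ribosomal proteins build the separate ribosome of that organelle. Of 39 tested, 0 were called at 6 h, where 0.222% of all tested probe sets were. At 48 h 9 fell (median -0.41), against 11% of all tested called, and between 6 h and 48 h 26 fell (median -0.56), against 19.4%. They include mrpl41.S at -0.72 and mrps18a.L at -0.53 at 48 h, and mrps17.L at -1.45 from 6 h to 48 h. The 9 became 2, 0 or 0 without vehicle array 1, 2 or 3, 5 or 1 without T3 6 h array 1 or 3, and 17, 0 or 0 without T3 48 h array 1, 2 or 3. The 26 became 11 or 13 without T3 6 h array 1 or 3, and 16 without T3 48 h array 2. In those fits 10.6%, 10.8% and 13% of all tested probe sets were called. With the replicate number as a block the 9 became 1 and the 26 became 22. In that fit 8.62% and 16.8% of all tested probe sets were called. No test of these lists against the ribosomal proteins was made, and the values stand side by side. The ribosomal proteins' probe sets are brighter, so the tests differ in precision. Probe sets of the same brightness were not compared between the lists.

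**Figure D5:**
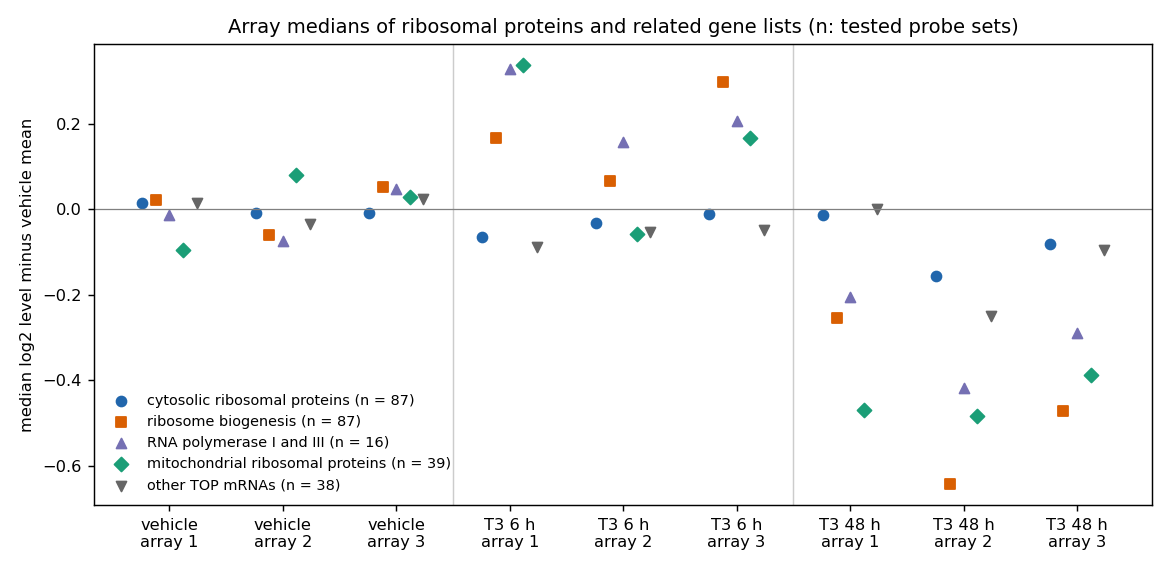
Median deviation from the vehicle mean (log2) of the ribosomal proteins and of the related gene lists on each array. The ribosomal proteins lie between -0.16 and 0.02, while biogenesis factors lie between 0.07 and 0.30 at 6 h and between -0.26 and -0.64 at 48 h.

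Other messenger RNAs with a TOP tract, such as translation factors, had 38 probe sets tested. None was called at 6 h or at 48 h (median -0.15), and between both times 1 of 3 probe sets for hnrnpa1.S rose by 0.49 and vim.L by 0.54. These 2 calls became 0, 1 or 1 when T3 6 h array 1, 2 or 3 was left out, and 6, 0 or 0 for T3 48 h array 1, 2 or 3. Against vehicle the list had 7 calls in place of 0 when the first of the 48 h arrays was left out. In that fit 23.4% of all tested probe sets were called. In a list of TOR and translational control genes with 19 tested, rps6ka1.L, a kinase of the RSK family, fell at 48 h (-1.05, adjusted p 0.0185). Between 6 h and 48 h larp4.S, a poly(A)-associated protein, fell by 1.22, larp4.L fell by 0.86 and rps6ka1.L fell by 0.78, and both sesn1.L probe sets, for a stress-responsive inhibitor of TOR, rose by 0.50 and 0.43. The call at 48 h was lost without vehicle array 2 or 3 or T3 48 h array 2, and the list had 3 calls without T3 48 h array 1. The 5 calls between both times, of 19 tested, became 1, 3 or 2 without T3 6 h array 1, 2 or 3, and 2 without T3 48 h array 2. Beside the counts of both lists, 0.222%, 11% and 19.4% of all tested probe sets were called in the 3 comparisons.

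Among the marker lists, only that for notochord and cartilage had every tested probe set called at 48 h. The share over all tested probe sets was 11%. All 4 tested notochord and cartilage probe sets fell against vehicle, col2a1.S and cnmd.L among them, and their summed linear level was 23.0 to 36.9 times the array median on vehicle arrays, 33.3 to 37.8 at 6 h and 7.12 to 20.5 at 48 h. The 4 calls became 0, 0 or 1 without vehicle array 1, 2 or 3 and 0 without T3 48 h array 2 or 3. Of 5 epidermal probe sets 1 (krt19.L) fell, and the list had 1 call when vehicle array 3 or T3 48 h array 1 was left out and 0 for each other array. Of 4 tested neural probe sets 1 (gap43.S) rose, by 1.41, while the others ran from -0.39 to 0.04 and the list's median was -0.15. The neural list kept a count of 1 whichever array was left out. In the remaining marker lists 0 of 9 muscle, 0 of 5 erythroid and 0 of 6 leukocyte probe sets were called. The erythroid list summed to 306 to 373 on vehicle arrays, 430 to 774 at 6 h and 339 to 596 at 48 h. The part of these tissues in the values of the ribosomal proteins was not tested.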

How the data were processed

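RNA from 9 pools of 3 tadpole tails was measured on 1-colour oligonucleotide arrays. The deposited table holds the authors' intensity values, made with GCRMA per the submitters' processing notes; its settings are not given in the sources used here. The table had 15611 probe sets, of which 120 are array controls. The deposited values, read as already divided by each array's median, were taken to log2 without further scaling. A probe set entered the tests when 3 of 9 arrays lay at or above 0 (8123). Genes came from the platform annotation: 9304 probe sets have 1 gene, 195 several and 5992 none, and 9227 matched the RefSeq table of assembly Xenopus_laevis_v10.1 by gene ID. limma 3.58.1 in R 4.3.3 fitted the 3 groups over all 9 arrays with a trend in the variance, and p-values were adjusted by Benjamini-Hochberg over all tested probe sets. Homeolog pairs were tested as the difference of .L and .S values on each array. Members and lists were chosen with earlier results of these data known. The named genes are the members called, the 4 highest and 4 lowest changes in each comparison, members with set roles (stalk, rpl5, rpl10, rpl11, rps3, rps6, rpsa), homeolog pairs, and up to 6 called genes of each list. Members with an unadjusted p under 0.05 and those without overlap were named after their values were seen. The script was tested on simulated data. No sequence is printed.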

Additional observations from a re-analysis of the deposited data

How the results depend on the processing

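Under 17 alternatives the count of called ribosomal proteins was 0 in every comparison except in 2 settings. With array weights it was 2 at 48 h against vehicle and 4 at 48 h against 6 h (2.3% and 4.6% of members, against 24.4% and 33% of all tested probe sets), and leaving out 1 array at a time it ran from 0 to 3 and from 0 to 5. The median change at 48 h against vehicle became -0.025 with quantile normalization and -0.065 with another centring. That of 48 h against 6 h became 0.0095 and -0.00052 in turn, so its sign is not settled. Biogenesis counts at 48 h against vehicle were 15 without the filter, 3 with a filter at log2 4, 52 with array weights and 14 with only the 2 groups compared, and ran from 1 to 51 over the single-array omissions; at 48 h against 6 h they were 9 with the filter at log2 4 and ran from 33 to 60 over those omissions. Mitochondrial counts at 48 h against vehicle were 2 without the filter, 2 with the filter at log2 4, 19 with array weights and 4 with only the 2 groups, and ran from 0 to 17; at 48 h against 6 h they were 5 with the filter at log2 4 and ran from 11 to 28. The cause was not tested, except that the filter at log2 4 leaves 19 biogenesis and 6 mitochondrial probe sets tested. Over all tested probe sets the share called at 48 h against vehicle was 3.91% without the filter and 8.21% with the filter at log2 4. It was 6.08% with only the 2 groups and ran from 3.08% to 23.4% over the single-array omissions. For 48 h against 6 h it was 16.8% with the log2 4 filter and ran from 10.6% to 25.5%. Same-numbered arrays of different groups correlated in their deviations at -0.133 to 0.103 (1 of 9 over 0.1), and differently numbered ones at -0.178 to 0.154. With 3 arrays per group, these values cannot tell whether the numbers pair the samples. With the replicate block 0 members were called in the 3 comparisons, against 0%, 8.62% and 16.8% of all tested. It had 27 biogenesis calls and 1 mitochondrial at 48 h against vehicle. The list alternatives were chosen after seeing the data. Of 1617 values of named members, 1612 stayed without a call and 5 became called. At 6 h array weights took the share of all tested probe sets called from 0.222% to 6.73% and biogenesis calls from 1 to 11. In place of 0 there were 3 mitochondrial, 3 polymerase, 2 TOR, 1 epidermal and 1 neural call. At 48 h other TOP mRNAs had 8 in place of 0 against vehicle and 7 in place of 2 against 6 h. The TOR list had 2 in place of 1 against vehicle. The 4 notochord and cartilage calls at 48 h against vehicle became 0 without the filter and with only the 2 groups compared, and the 4 polymerase calls became 2 without the filter. The 5 TOR calls between both times became 3 in those settings, the 2 TOP calls became 1, and the epidermal call at 48 h was lost in both, with quantile normalization, without the intensity trend and with the replicate block. The filter at log2 4 left 0 polymerase, 0 notochord, 0 neural and 2 TOR probe sets tested. The SD of the members' array medians, 0.0443, pools uneven groups (48 h: -0.01, -0.16, -0.08), so it cannot judge the median changes.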

Other observations

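Chosen after its values were seen, a probe set with no gene listed, 1 of the 69 bright probe sets that are no members, fell at 48 h by 1.15 on the log2 scale (SE 0.10, adjusted p 0.000337 in limma). It read 8.58, 8.61 and 8.77 with vehicle, 8.70, 8.90 and 8.57 at 6 h, and 7.69, 7.43 and 7.39 at 48 h, so the 48 h arrays did not overlap the others. The first part of its identifier is shared with member probe sets for rpl7a.S, rpl13a.L and rpl36a.L. Whether it measures a ribosomal protein transcript was not tested.

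Of the 14 member probe sets whose identifier holds A1, 9 had a mean log2 level under 1.5, against 2 of the 80 whose identifier holds S1. Several of the dim ones belong to genes that other probe sets found bright, such as rps6.S, rpl35.L and rpl35a.S.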
